A study of Trichosurus vulpecula with 6 samples.

Results

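SLC7A11, CTNS, ATP7A, TPCN2 and TMEM163 encode membrane proteins that carry cystine, copper, cations or zinc and that act in or around pigment cells. They were chosen by name, by a rule that uses no measured value but with earlier results of these data known, and are 5 of the 18072 genes with an assembled transcript in possum skin. Their transcripts were measured by RNA-sequencing in 6 adult female brushtail possums (Trichosurus vulpecula), 3 with black fur and 3 with grey fur, using skin punched from the ear. The possums were wild animals from Dunedin, New Zealand, killed in pest control and sampled after death, and coat colour was the only label that differed between the groups. All libraries were poly(A)-enriched and strand-specific, and were made from 250 ng of RNA. The authors assembled transcripts in each library separately and gave each transcript a TPM, an abundance corrected for its length and for the size of the library. Here the TPM values of all transcripts assigned to a gene were added. The comparison asked whether the levels of these genes differed between black and grey skin.

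Melanin is made in melanosomes, organelles related to lysosomes, from tyrosine by tyrosinase, an enzyme that needs copper. Cysteine that reaches the melanosome turns the pathway from black eumelanin to yellow or red pheomelanin, so the supply of cystine, the oxidised pair of cysteines, is tied to pigment type. Ion channels and exchangers of the melanosome membrane set its pH, on which tyrosinase activity depends. In mice, loss of SLC7A11 gives the subtle gray coat and mutation of ATP7A gives the mottled coats, and in humans variants near TPCN2 are associated with hair colour.

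The libraries held 7.58, 8.51 and 6.47 aligned gigabases in black possums, against 4.17, 8.37 and 10.2 aligned gigabases in grey possums. Grey replicate 1 was therefore the shallowest library and grey replicate 3 the deepest. Melanocyte markers (10 of 11 genes with a transcript) summed to 177, 125 and 285 TPM in black skin, against 96.5, 295 and 104 TPM in grey skin, with TYR, TYRP1, DCT, PMEL and MLANA present in every library and MC1R listed at 0 in all 6. Of the 8 keratinocyte markers, TP63 and DSG1 were matched to RefSeq genes and were present throughout, and the 6 keratins were not analysed here. Skeletal muscle markers (5 of 6 matched to RefSeq genes) summed to 2701 TPM in black replicate 1 and to between 2.17 and 5.23 TPM in the other libraries. Fibroblast markers (5 of 6 matched) ranged from 2304 to 2713 TPM in black skin and from 962 in grey replicate 3 to 3609 TPM in grey replicate 1. Macrophage markers (7 genes) summed to 323, 262 and 546 TPM in black skin, against 308, 283 and 258 TPM in grey skin. On the log2(TPM + 1) scale used below, all 5 fibroblast and all 7 macrophage markers had the higher mean in black skin, and 0 were called. Ear skin is a mixture of cells, so fewer cells of a type and less RNA per cell cannot be told apart in any of the values below.

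All 5 genes were assembled in all 6 libraries and their levels overlapped between coat colours. CTNS stood highest, with a mean of 17.8 ± 3.02 TPM (SD, n = 6 libraries), and was followed by TPCN2 at 15.4 ± 3.17 TPM and ATP7A at 11.7 ± 3.57 TPM. TMEM163 averaged 2.17 ± 0.728 TPM and SLC7A11 1.58 ± 0.607 TPM. The ranges of CTNS, TPCN2 and ATP7A overlapped each other, as did those of TMEM163 and SLC7A11. A gap lay between the pairs, since the lowest ATP7A value was 7.89 TPM and the highest TMEM163 value was 3.47 TPM. Among the 15565 genes that averaged 1 TPM or more, SLC7A11 was above only 4.64% and TMEM163 above 8.55%, while ATP7A, TPCN2 and CTNS were above 45.5%, 53.7% and 58.0%.

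The comparison by coat colour was fitted with limma on log2(TPM + 1) over the 15565 genes, with Benjamini-Hochberg adjustment over all of them. At an adjusted p under 0.05, limma called 0 of the 5 transporter genes, where 3 of 15565 genes (0.0193%) were called in all, 2 higher (0.0128%) and 1 lower (0.00642%) in black skin. At an unadjusted p under 0.05 limma gave 0 of the 5, against 354 of all genes (2.27%). Black and grey values did not overlap for 0 of the 5 genes, against 997 of all genes (6.41%). Fold changes below are black minus grey on the log2(TPM + 1) scale, which understates the change of low genes, and the exact 2-sided permutation test over the 20 assignments of the libraries cannot give a p below 0.1. Nothing in the labels says more of the animals than their coat colour, sex and stage. The p-values rest on the spread between these 6 libraries, in which differences between possums and between assemblies cannot be told apart.

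**Figure D1:**
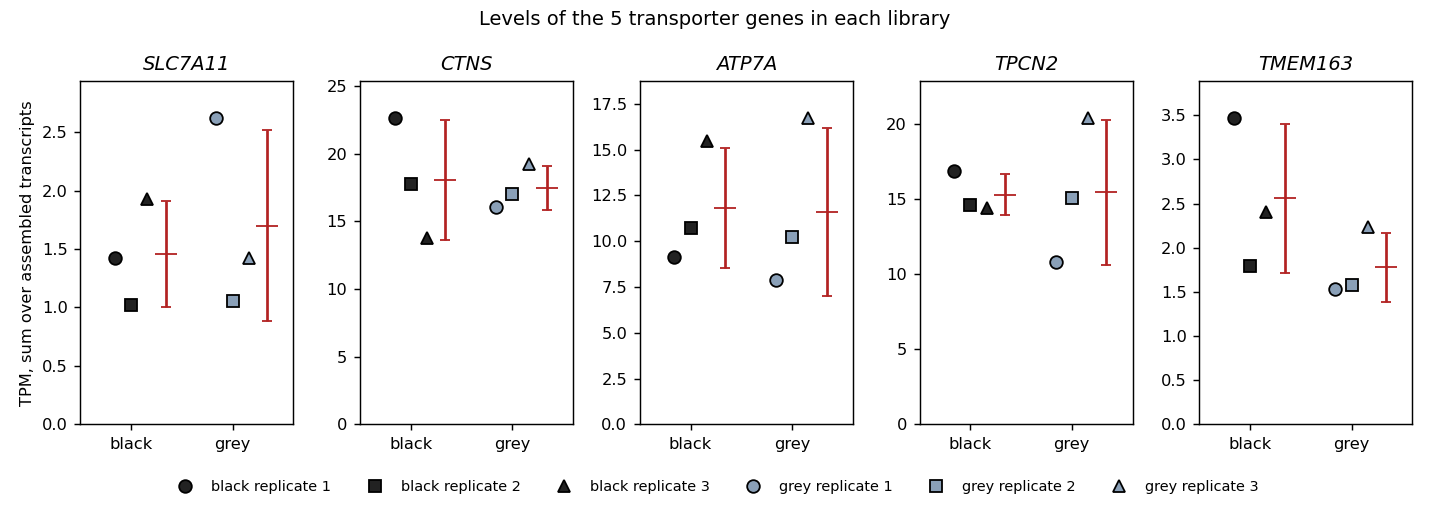
TPM of each gene (vertical axis, a linear scale from 0 in each panel) in the 3 black and 3 grey libraries, 1 symbol to a library, with the mean and SD of each coat colour in red. Black and grey values overlap in all 5 panels, and SLC7A11 and TMEM163 lie below 3.5 TPM throughout.

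SLC7A11 is the transport subunit of the cystine and glutamate exchanger of the plasma membrane, through which cells take up cystine. Its RefSeq span lies on chromosome 6 from 117147926 to 117247312 of the mTriVul1.pri assembly (99.4 kb), and its transcripts ran on the forward strand. The gene had 1.42, 1.02 and 1.93 TPM in black skin, against 2.62, 1.06 and 1.42 TPM in grey skin. Grey replicate 1 was highest and black replicate 2 lowest. The difference of −0.11 (SE 0.35, 95% confidence interval −0.95 to 0.73) was smaller than the spread between libraries (limma adjusted p = 1.00, exact permutation p = 0.70).

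The highest value rested on the fewest reads. Coverage of SLC7A11 amounted to 82.1, 113 and 31.6 reads in black replicates 1, 2 and 3, against 14.8, 70.0 and 362 reads in grey replicates 1, 2 and 3 (coverage times length, divided by the read length). In black replicate 2, grey replicate 2 and grey replicate 3 the gene was assembled as 1 transcript of 12 exons, which was 2924, 1928 and 5715 nt long. Black replicate 1 had 2 transcripts of 11 and 10 exons, and the second omitted the exon at 117223321 to 117223444 through an intron of 42852 nt. In black replicate 3 the gene fell into 2 pieces that did not overlap, of 6 and 2 exons at 0.84 and 1.09 TPM. In grey replicate 1 it fell into 3 pieces, of 3, 4 and 3 exons at 1.18, 0.64 and 0.81 TPM. A sum of TPM counts each separate piece as a transcript of its own. With all assembled bases of a library taken as 1 transcript instead, SLC7A11 stood at 1.40, 1.02 and 0.88 TPM in black skin, against 0.85, 1.06 and 1.42 TPM in grey skin. By this measure grey replicate 1 was the lowest library and not the highest, and the coat colours again overlapped (exact permutation p = 0.90).

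**Figure D2:**
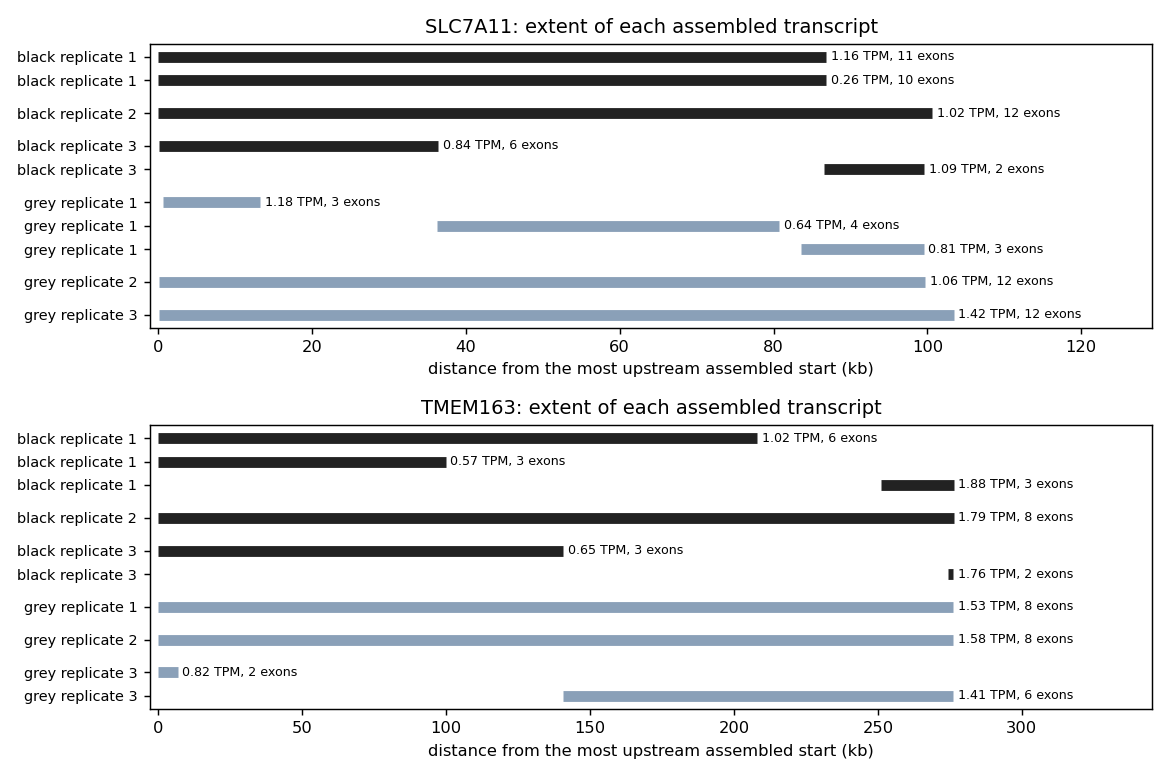
Extent of each assembled transcript of SLC7A11 (top) and TMEM163 (bottom), 1 bar to a transcript from its 5′ to its 3′ end, in kb from the most upstream assembled start, with black libraries above grey libraries and the TPM and exon number of each transcript at its right. SLC7A11 is broken into separate pieces in black replicate 3 and grey replicate 1, and TMEM163 in black replicate 1, black replicate 3 and grey replicate 3.

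Over the 496 exon bases assembled in all 6 libraries, coverage of SLC7A11 was 0.71, 0.49 and 0.49 per aligned gigabase in black skin, against 0.50, 0.55 and 0.83 per aligned gigabase in grey skin (exact permutation p = 0.50). Grey replicate 3 was highest on this scale and the remaining grey values lay among the black ones. Of 12 introns seen in any library, the intron of 5799 nt and the next one of 6619 nt, both near the 5′ end, were found in all 6. The final exon ended at 117247214 in grey replicate 2 and at 117250930 in grey replicate 3, so that it was up to 3928 nt long. A separate unspliced transcript of 6462 to 6604 nt on the same strand began at about the place where that exon ended, from 117250258 to 117256861 at its widest. It was assembled in black replicate 1 (2.85 TPM), black replicate 3 (1.47 TPM) and grey replicate 2 (1.63 TPM), lay beyond the RefSeq span and was left out of the totals. Adding it would give SLC7A11 4.27, 1.02 and 3.40 TPM in black skin, against 2.62, 2.69 and 1.42 TPM in grey skin, and turn the difference to 0.18.

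CTNS encodes cystinosin, which releases cystine from lysosomes and is the gene of cystinosis in humans. It lies on the forward strand of chromosome 4 (441411097 to 441420533, 9.44 kb) and is the most compact of the 5 genes, with no intron over 1815 nt. The level was 22.7, 17.8 and 13.7 TPM in black skin, against 16.1, 17.0 and 19.3 TPM in grey skin. Black skin held both the highest and the lowest value, and all grey values lay between them. The difference was 0.02 (SE 0.22, 95% confidence interval −0.49 to 0.54, limma adjusted p = 1.00), and the exact permutation test gave p = 0.90. Coverage over the 2505 exon bases shared by the 6 libraries was 11.7, 9.87 and 7.42 per aligned gigabase in black skin, against 8.42, 8.51 and 10.4 per aligned gigabase in grey skin, with the same overlap (exact permutation p = 0.70).

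Of the 14 CTNS introns seen in any library, 9 were found in all 6. The first intron ended at either of 2 acceptor positions 4 nt apart. The upstream acceptor carried 33.3%, 100% and 33.3% of the coverage of transcripts with either acceptor in black replicates 1, 2 and 3, against 27.0%, 76.9% and 0% in grey replicates 1, 2 and 3. Either acceptor could thus be the only one assembled, and the order of the libraries did not follow coat colour. These shares rest on few reads, since the first exon was covered at 0.20 to 1.99 per aligned gigabase, whereas the most covered exon of each library stood between 13.1 and 19.2 per aligned gigabase. Grey replicate 1 alone had a further first exon at 441411292 to 441411379, with a coverage of 0.30 per aligned gigabase. The 3′ end reached 441421684 in black replicate 1, which is 1151 nt past the RefSeq end, and in grey replicate 1 lay at 441420233, short of that end.

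An unspliced transcript of 887 to 936 nt lay on the opposite strand at the 3′ end of CTNS in all 6 libraries, mostly from 441420505 to 441421391, and was singled out after its values were seen. It had 68.2, 75.6 and 136 TPM in black skin, against 113, 75.7 and 114 TPM in grey skin, which is 3.01 to 9.88 times the TPM of CTNS in the same library. The coat colours overlapped (exact permutation p = 0.80). In black replicate 1, black replicate 2 and grey replicate 2 the assembled 3′ exon of CTNS covered it whole. In grey replicate 1 it did not overlap the CTNS transcripts assembled there, though 1 end of it lay just inside the RefSeq span of CTNS. The libraries keep strand, so its reads were counted apart from those of CTNS, and it entered no CTNS value.

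ATP7A is a copper pump of the trans-Golgi network that loads copper into tyrosinase and other cuproenzymes, and it is the gene of Menkes disease in humans. Its RefSeq span is 24645436 to 24708922 on chromosome X, and its transcripts ran on the reverse strand. The level was 9.16, 10.7 and 15.5 TPM in black skin, against 7.89, 10.2 and 16.7 TPM in grey skin. Each coat colour held a high library, black replicate 3 and grey replicate 3, above the others. The difference was 0.05 (SE 0.31, 95% confidence interval −0.70 to 0.80), and neither limma (adjusted p = 1.00) nor the exact permutation test (p = 0.90) separated the coat colours.

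The high ATP7A values of black replicate 3 and grey replicate 3 were each a sum over 3 overlapping transcripts. In black replicate 3 a transcript of 12 exons from the 3′ part of the gene had 6.46 TPM, beside 7.85 and 1.15 TPM for the transcripts of 24 and 25 exons. With all assembled bases taken as 1 transcript, ATP7A stood at 8.04, 8.31 and 10.7 TPM in black skin, against 7.89, 9.29 and 11.3 TPM in grey skin, and these libraries were still the highest of their coat colour. Coverage over the 4791 exon bases assembled in all libraries was 4.41, 5.17 and 5.04 per aligned gigabase in black skin, against 3.98, 4.74 and 7.72 per aligned gigabase in grey skin (exact permutation p = 0.90). On that last scale black replicate 3 did not stand out, whereas grey replicate 3 still did. The fitted difference then became −0.11. Grey replicate 3 was the highest library by shared exon bases for SLC7A11, ATP7A and TPCN2, the second highest for CTNS and the second lowest for TMEM163. It was also the deepest library and the one with the least fibroblast signal (962 TPM), and the part of either in these values was not tested.

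Transcription of ATP7A began well upstream of the RefSeq gene. In all 6 libraries at least 1 transcript started between 24757283 and 24757360, which is 48361 to 48438 nt beyond the RefSeq 5′ end. The coverage of this far first exon was 0.96, 0.93 and 1.07 per aligned gigabase in black skin, against 1.11, 0.75 and 3.20 per aligned gigabase in grey skin. It was low relative to the body of the gene in every library. In grey replicate 2 the main transcript instead began at 24708945, close to the RefSeq end, and the transcript with the far exon held 2.60 in mean coverage against 39.4 for the main one. Skipping of the exon at 24708858 to 24708945, by an intron of 48571 nt, was assembled in grey replicates 2 and 3 only, with a mean coverage of 2.60 and 21.6, and in no black library. A difference in its use between coat colours was not tested. Of 27 introns, 22 were found in all 6 libraries.

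TPCN2 forms a cation channel in the membranes of melanosomes and lysosomes that is gated by the phosphoinositide PI(3,5)P2 and restrains pigmentation in cultured melanocytes. Its RefSeq span is 278563263 to 278596603 on chromosome 6, forward strand. The level was 16.9, 14.7 and 14.4 TPM in black skin, against 10.8, 15.1 and 20.4 TPM in grey skin. The black values lay close together and inside the grey range, which ran from grey replicate 1 at the bottom to grey replicate 3 at the top. The means were 15.3 ± 1.36 TPM in black skin and 15.5 ± 4.81 TPM in grey skin (SD, n = 3 each). The difference was 0.03 (SE 0.24, 95% confidence interval −0.56 to 0.61, limma adjusted p = 1.00), with an exact permutation p of 1.00. The ends of the grey range were the shallowest and the deepest library, and a difference in spread between the coat colours was not tested.

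TPCN2 was the most evenly assembled of the 5 genes. Of its 26 introns 24 were found in all 6 libraries, all 25 exon blocks were present in every library, and 1 transcript held all or most of its TPM in each. The assembled 5′ end lay 2053 to 2134 nt before the RefSeq start, and the 6 starts agreed within 81 nt. Coverage over the 4740 shared exon bases was 8.48, 7.87 and 7.51 per aligned gigabase in black skin, against 5.62, 7.51 and 10.6 per aligned gigabase in grey skin (exact permutation p = 0.90). Grey replicate 1 was again lowest and grey replicate 3 highest. An unspliced transcript of 2329 to 2445 nt followed the gene on the same strand, in black replicates 1, 2 and 3 (19.0, 13.7 and 15.6 TPM) and in grey replicate 2 (14.7 TPM). In grey replicate 3 the final exon of TPCN2 ran on into the same region, to 278599818, and in grey replicate 1 nothing was assembled there. Adding this transcript would raise TPCN2 to 35.9, 28.4 and 30.0 TPM in black skin, against 10.8, 29.8 and 20.4 TPM in grey skin (difference 0.70). This sum depends on whether the assembler joined the region to the gene, and even so limma called no difference. ATP7A had a like unspliced stretch past its 3′ end, at 20.4 and 16.8 TPM in black replicates 1 and 2, against 20.6 and 22.9 TPM in grey replicates 2 and 3. In black replicates 2 and 3 and grey replicate 3 a counted transcript of ATP7A also ran on through this region. Adding the separate stretch would give ATP7A 29.5, 27.6 and 15.5 TPM in black skin, against 7.89, 30.8 and 39.7 TPM in grey skin (difference 0.11).

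TMEM163 encodes a zinc transporter of the plasma membrane and of lysosomes and synaptic vesicles, which moves zinc out of the cytoplasm. Its RefSeq span is the longest of the 5 genes (chromosome 2, 291294847 to 291706793, 412 kb), and its transcripts ran on the forward strand. The level was 3.47, 1.79 and 2.41 TPM in black skin, against 1.53, 1.58 and 2.23 TPM in grey skin. Black replicates 1 and 3 were above all grey libraries, and black replicate 2 lay below grey replicate 3. At 2.56 ± 0.848 TPM in black skin and 1.78 ± 0.391 TPM in grey skin (SD, n = 3 each), TMEM163 had the largest difference of the 5 genes, 0.34 (SE 0.30, 95% confidence interval −0.38 to 1.06). It did not pass the test (limma adjusted p = 1.00, unadjusted p = 0.30, exact permutation p = 0.20).

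As with SLC7A11, the highest TMEM163 sums belonged to libraries in which the gene was broken. Black replicate 1 had pieces of 6 and 3 exons at the 5′ side (1.02 and 0.57 TPM) and of 3 exons at the 3′ side (1.88 TPM). Black replicate 3 had pieces of 3 and 2 exons at 0.65 and 1.76 TPM, and grey replicate 3 had pieces of 2 and 6 exons at 0.82 and 1.41 TPM. In the other libraries a single transcript of 8 exons spanned 276 kb. With all assembled bases taken as 1 transcript, TMEM163 stood at 1.64, 1.79 and 1.44 TPM in black skin, against 1.53, 1.58 and 1.25 TPM in grey skin. The mean was then 1.63 ± 0.175 TPM in black skin and 1.45 ± 0.180 TPM in grey skin (SD, n = 3 each, exact permutation p = 0.40). Over the 1292 shared exon bases coverage was 0.91, 0.98 and 0.72 per aligned gigabase in black skin, against 0.90, 0.80 and 0.74 per aligned gigabase in grey skin (exact permutation p = 0.60). The fitted difference fell to 0.06 on that scale, and the lowest library was a black one. Coverage came to 105, 124 and 61.1 reads in black skin, against 45.3, 92.0 and 92.6 reads in grey skin.

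The assembled 5′ end of TMEM163 lay between 291430452 and 291430524 in all 6 libraries, within 72 nt, far inside the RefSeq start, and no transcript of the gene was assembled over the stretch before it. Of 9 introns, the first of 6328 nt and 1 other were found in all 6 libraries, and the longest, of 133938 nt, in 5. Black replicate 1 alone had an exon at 291530231 to 291530323 inside that intron and another at 291638408 to 291638452, each covered at 0.26 per aligned gigabase.

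**Figure D3:**
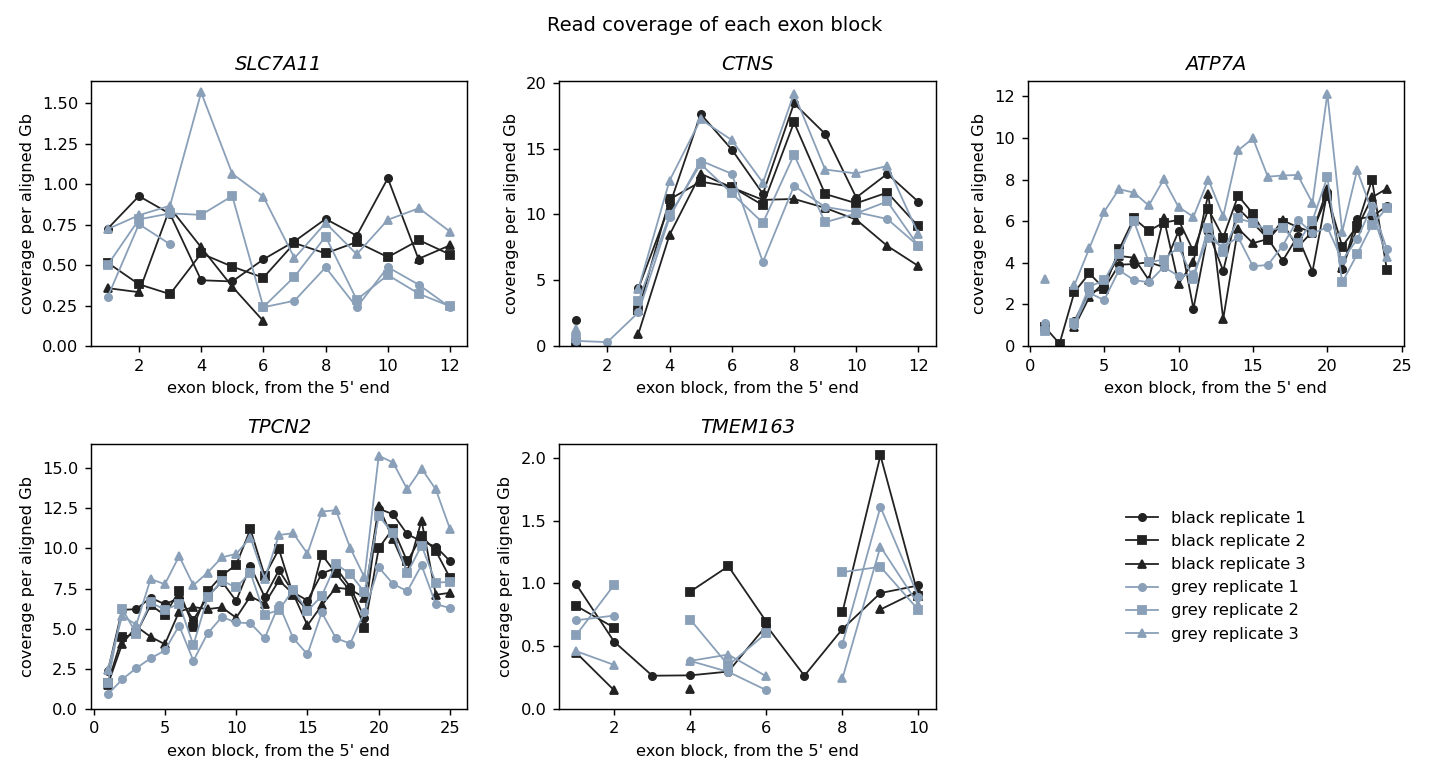
Coverage of each exon block per aligned gigabase (vertical axis, linear) by its order from the 5′ end (horizontal axis), for each gene, with 1 line to a library, black libraries in black and grey libraries in grey-blue; a break marks a block that was not assembled. CTNS, ATP7A and TPCN2 are covered in nearly every block and rise after their first exons, and grey replicate 3 is the highest line over most of ATP7A and TPCN2.

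Coverage along the 3 better covered genes was uneven in the same sense in all libraries. The mean coverage of the last 1 in 3 exon blocks, divided by that of the initial 1 in 3, was 2.01 to 2.91 for CTNS, 1.35 to 2.23 for ATP7A and 1.63 to 2.15 for TPCN2. Each mean took only the blocks assembled in that library. TMEM163 gave ratios from 1.18 to 2.92. SLC7A11 gave 1.04, 1.35 and 1.08 in black skin, against 0.60, 0.44 and 0.73 in grey skin, which did not overlap. These means did not cover the same exons: black replicate 1 lacked block 12, black replicate 3 blocks 9 and 10, and grey replicate 1 block 4. The separation was therefore not one over the same exons. Of the last blocks only block 11 was assembled in every library, at 0.53, 0.66 and 0.54 per aligned gigabase in black skin, against 0.38, 0.32 and 0.85 in grey skin. It lay below each of blocks 1 to 3 in black replicate 1 (0.73, 0.93 and 0.82) and above blocks 1 and 2 in grey replicate 3 (0.72 and 0.81). Over these shared blocks the coat colours thus overlapped. For the ratio of means the exact permutation test gave p = 0.10, the smallest it allows (0.50 after Benjamini-Hochberg adjustment over the 5 genes). This ratio was singled out after its values were seen. Coverage of SLC7A11 was at or below 1.57 per aligned gigabase in every block, and 11, 12 and 8 of its 12 blocks were assembled in black skin, against 10, 12 and 12 in grey skin. The other 4 genes overlapped between coat colours in this ratio. The TPCN2 ratio was highest in grey replicate 1 (2.15), the shallowest library. The CTNS ratio was also highest there (2.91), but only this library averaged in the further first exon, at 0.30 per aligned gigabase. That exon lowered the initial mean, so this CTNS ratio is not comparable with the rest. The next highest CTNS ratio was 2.64, in black replicate 3. Relative to each other over shared exon bases, ATP7A and TPCN2 varied least of the 10 pairs, with a log2 ratio of ATP7A to TPCN2 from −0.94 to −0.45 (SD 0.17 over 6 libraries). ATP7A and TMEM163 varied most, from 2.14 to 3.37 (SD 0.45). None of these 10 ratios between genes separated the coat colours, the smallest exact permutation p being 0.30 before any adjustment.

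**Figure D4:**
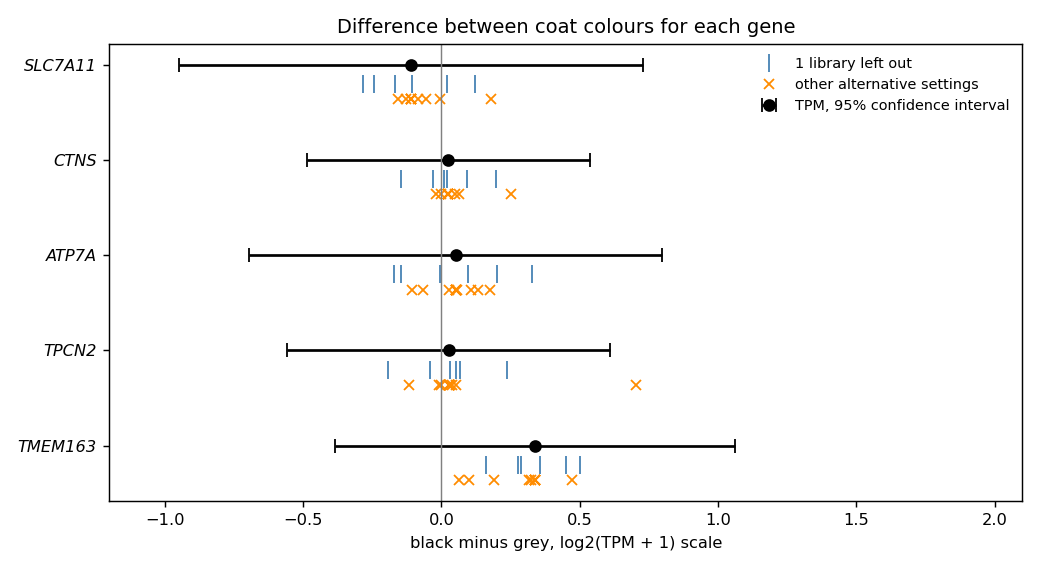
Difference between black and grey skin for each gene on the log2(TPM + 1) scale, with its 95% confidence interval (black), the values with 1 library left out (blue ticks) and under the other alternative settings (orange crosses). Every interval includes 0, and for all genes but TMEM163 the alternatives fall on both sides of 0.

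Leaving out a single library turned the sign for 4 of the 5 genes and brought none of them past the threshold. Without grey replicate 1 the difference was 0.12 for SLC7A11, −0.03 for CTNS, −0.17 for ATP7A and −0.19 for TPCN2. TMEM163 kept its direction throughout, from 0.16 without black replicate 1, the library with the muscle signal, to 0.50 without black replicate 2.

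The melanocyte sum was highest in grey replicate 2 (295 TPM) and black replicate 3 (285 TPM) and lowest in grey replicate 1 (96.5 TPM). In those libraries, in the same order, TPCN2 had 15.1, 14.4 and 10.8 TPM, the order of the melanocyte sums, but its highest value (20.4 TPM) was in grey replicate 3, where the sum was 104 TPM. ATP7A had 10.2, 15.5 and 7.89 TPM and was likewise highest in grey replicate 3. CTNS had 17.0, 13.7 and 16.1 TPM, TMEM163 had 1.58, 2.41 and 1.53 TPM, and SLC7A11 had 1.06, 1.93 and 2.62 TPM. The share of the members' signal that comes from melanocytes was not tested.

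Genes of the same pathways were counted in 4 lists, which together hold 101 other genes, of which 91 matched a RefSeq symbol and 81 reached a mean of 1 TPM. The 10 that matched no symbol were not analysed here. Limma called 0 of the 81 (0.0193% of all genes tested). At an unadjusted p under 0.05 there were 3 of 81 (3.70%, against 2.27% of all genes), and black and grey values did not overlap for 5 of 81 (6.17%, against 6.41% of all genes). The genes below are named for their direct link to a member or as the largest differences of their list, and none of them passed the test. Their values are sums of TPM over assembled transcripts. The effect of broken assemblies and of depth on these sums, seen above for members at a few TPM, was not examined.

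In the cystine and glutathione list 18 of 20 genes were tested, and their median difference was −0.03, against 0.04 over all genes tested. SLC3A2, the heavy chain that partners SLC7A11 at the cell surface, had 32.0, 77.2 and 80.5 TPM in black skin, against 77.5, 86.1 and 112 TPM in grey skin (difference −0.63, SE 0.37). It stood far above its partner in every library, and the low library was black replicate 1. MFSD12, which imports cysteine into melanosomes, had 4.62, 3.99 and 4.73 TPM in black skin, against 4.62, 4.20 and 5.88 TPM in grey skin, with full overlap. The largest difference of the list was that of CBS, the enzyme that forms cystathionine on the way to cysteine, with 4.78, 8.77 and 5.65 TPM in black skin, against 18.3, 10.6 and 10.9 TPM in grey skin. All black values were below all grey values (difference −0.94, SE 0.30, limma unadjusted p = 0.017, adjusted p = 1.00). SLC3A1, the heavy chain of another cystine transporter known from kidney, was low at 1.94, 1.17 and 1.61 TPM in black skin, against 0, 0.25 and 1.26 TPM in grey skin. The difference was 0.85 (SE 0.43), with black replicate 2 below grey replicate 3.

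In the copper list 21 of 29 genes were tested, with a median difference of −0.05 and none at an unadjusted p under 0.05. SLC31A1, the copper importer of the plasma membrane, had 21.8, 45.7 and 50.0 TPM in black skin, against 35.7, 41.4 and 47.1 TPM in grey skin. Black skin held its highest and its lowest value. TYR, tyrosinase itself, had 5.83, 4.94 and 12.3 TPM in black skin, against 3.44, 14.0 and 3.51 TPM in grey skin (difference 0.28, SE 0.55). Its high libraries were those of the highest melanocyte sums, of which TYR is itself a part. ATP7B, the close relative of ATP7A best known from liver, had 0.84, 2.08 and 3.01 TPM in black skin, against 7.02, 2.54 and 2.25 TPM in grey skin. Its difference of −0.67 (SE 0.47) was the largest of the list, and grey replicate 1 stood above all other libraries. LOX, the copper enzyme that cross-links collagen and elastin, followed with 22.5, 44.2 and 43.4 TPM in black skin, against 67.9, 26.6 and 96.1 TPM in grey skin (difference −0.66, SE 0.50). The copper chaperone ATOX1 was not matched to a RefSeq gene name and was not analysed here.

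In the list of melanosome and lysosome ion transport 25 of 27 genes were tested, with a median difference of 0.02. TPCN1, the sister channel of TPCN2, had 8.22, 8.56 and 9.69 TPM in black skin, against 9.12, 8.24 and 7.34 TPM in grey skin, and overlapped. OCA2, an anion channel of melanosomes, had 4.26, 1.71 and 4.79 TPM in black skin, against 5.03, 3.04 and 1.29 TPM in grey skin. SLC45A2, a melanosomal sugar and proton transporter, had 1.81, 1.56 and 4.06 TPM in black skin, against 3.44, 4.86 and 0.90 TPM in grey skin. Neither gene showed an order by coat colour. SLC24A5, an exchanger of sodium, calcium and potassium needed for melanin, likewise overlapped, with 5.39, 2.31 and 6.20 TPM in black skin, against 4.86, 7.14 and 3.46 TPM in grey skin. TRPM1, a cation channel of melanocytes and of the retina, had 2.51, 2.15 and 4.02 TPM in black skin, against 0, 1.17 and 0.81 TPM in grey skin. All black values were above all grey values (difference 1.27, SE 0.41, limma unadjusted p = 0.018, adjusted p = 1.00), the largest difference in the 4 lists. The value of 0 came from grey replicate 1, the shallowest library. MCOLN2, a lysosomal cation channel, had 2.28, 1.54 and 2.71 TPM in black skin, against 5.02, 3.08 and 2.99 TPM in grey skin (difference −0.55, SE 0.30). Its black values were all below its grey values, though black replicate 3 and grey replicate 3 were close. MCOLN3 was listed at 0 in all libraries but grey replicate 2 (0.30 TPM).

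In the zinc list 17 of 25 genes were tested, with a median difference of −0.06. SLC30A9, a zinc transporter of mitochondria, had 11.2, 14.6 and 9.67 TPM in black skin, against 6.70, 7.98 and 7.59 TPM in grey skin. The coat colours did not overlap (difference 0.59, SE 0.21, limma unadjusted p = 0.025, adjusted p = 1.00). MTF1, the zinc sensor that activates metallothionein genes, had 12.4, 8.17 and 17.5 TPM in black skin, against 7.41, 8.25 and 11.6 TPM in grey skin (difference 0.40, SE 0.30). Black replicate 2 lay among the grey values.

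**Figure D5:**
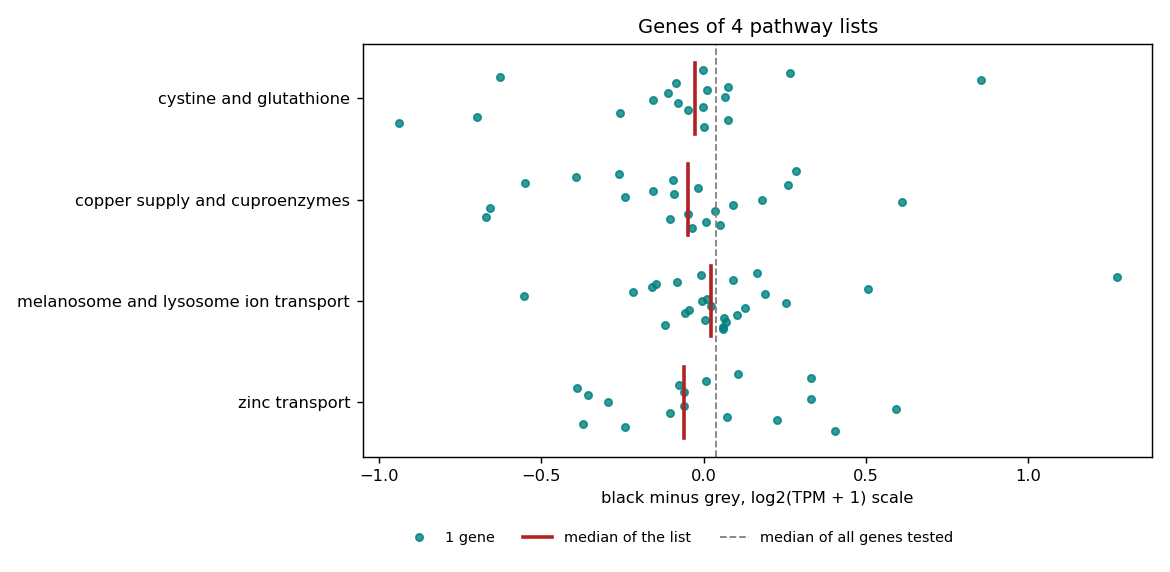
Difference between black and grey skin on the log2(TPM + 1) scale for each tested gene of the 4 pathway lists (1 point to a gene), with the median of each list (red) and that of all genes tested (dashed). Medians lie between −0.06 and 0.02, and TRPM1 at 1.27 and CBS at −0.94 are the outermost points.

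The genes whose levels most resembled each member over the 6 libraries were found by the mean absolute difference of their centred log2(TPM + 1) values. Tested genes with a LOC or TRNA symbol were left out of this comparison. For TMEM163 they were EMILIN3 (0.017), CAMK2G (0.059) and GATAD2A (0.062), and for TPCN2 they were NRBP1 (0.023), PEF1 (0.029) and NOP9 (0.041). For CTNS they were MTMR3 (0.041), TLK2 (0.043) and RAB5B (0.045). For ATP7A they were GNA15 (0.056), TMEM51 (0.076) and IL12B (0.087), and for SLC7A11 they were WASF1 (0.073), TENT2 (0.081) and ODF2L (0.082). The median over all genes so compared lay between 0.29 and 0.38 for the 5 members. None of the 15 neighbours was another member or a gene of the 4 lists. With 6 libraries such likeness describes these samples only, and for SLC7A11 and TMEM163 the profile compared includes the effect of broken assemblies on the sum.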

How the data were processed

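Ear punch skin from 3 black and 3 grey adult female possums was analysed, grouped by the coat colour in the sample labels. The authors trimmed reads (Trim Galore version 0.6.10, Phred score 20), mapped them with HISAT2 (version 2.2.1) and assembled transcripts per library with StringTie (version 2.2.0), from the paper and the submitters' processing notes. The deposited files give, for each transcript, its coverage, FPKM and TPM, and for each exon its coverage. These are not counts, so no count model was used. Depth was taken as the ratio of coverage to FPKM.

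Gene names came from the RefSeq spans of the mTriVul1.pri assembly, and a transcript was given to a gene when its exons overlapped the span on the inferred strand. Of 274079 transcripts, 232015 were assigned to 18072 genes, and all 5 members matched by symbol. The deposited names identified none of the member transcripts. Exons past a RefSeq span may belong to the gene or to a neighbour. Genes with near-identical copies may share reads.

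Coat colours were compared by limma (version 3.58.1, R 4.3.3, with a trended eBayes prior) on log2(TPM + 1), over the 15565 genes that averaged 1 TPM or more and adjusted by Benjamini-Hochberg, and by exact 2-sided permutation. The fit was tested on simulated data, with changes set on the log2(TPM + 1) scale. It recovered 3.7% of 2-fold changes and 91.2% of 4-fold changes, so a 2-fold change would mostly go uncalled. Precision is limited by 3 libraries per colour and, for SLC7A11 and TMEM163, by few reads. Named genes were the members, their direct partners, the 2 largest differences of each list and the 3 most alike genes per member. Members and lists were chosen with earlier results of these data known. Alternatives covered pseudocount, filter, scaling, single-exon transcripts, exon length, variance model, library weights, a replicate block and leaving out each library. Shared exon bases, pieces taken as 1 transcript and segments beyond the RefSeq span were added after seeing the data. Python (version 3.11.15) and matplotlib (version 3.10.9) drew the figures.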

Additional observations from a re-analysis of the deposited data

How the results depend on the processing

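For the 5 genes, limma gave 0 calls among 82 values under 17 alternative settings. Pieces taken as 1 transcript added 5 values with no limma test, and 17 of the 87 values turned the sign of the difference. With 1 library left out in turn, the difference ranged from −0.29 to 0.12 for SLC7A11, from −0.15 to 0.20 for CTNS, from −0.17 to 0.33 for ATP7A, from −0.19 to 0.24 for TPCN2 and from 0.16 to 0.50 for TMEM163. Upper-quartile scaling gave −0.0030 for CTNS and −0.00079 for TPCN2, and library weights gave −0.020 for CTNS. A fixed exon length gave −0.12 for TPCN2, and the exon bases shared by all libraries gave −0.11 for ATP7A. Pieces taken as 1 transcript gave −0.067 for ATP7A and −0.0097 for TPCN2, and adding segments beyond the RefSeq span gave 0.18 for SLC7A11. The cause of these reversals was not tested. A mean of at least 5 TPM left SLC7A11 and TMEM163 untested, and a fixed exon length left SLC7A11 untested. TMEM163 had no reversal under any setting run.

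The count of genes called over the whole table was 3, and it was 1 among genes that averaged 5 TPM or more, 6 with a fixed exon length, and between 0 and 3 with 1 library left out. With the replicate number as a block it was 0. Deviations of same-numbered black and grey libraries correlated at −0.0084, 0.017 and −0.050, so no deviation shared by same-numbered libraries was seen. These values cannot show whether such libraries were collected or processed together. In this balanced design the block cannot move a difference, only its SE, which for TMEM163 was 0.35 with the block and 0.30 without. The SE also rose with the block for SLC7A11, CTNS and TPCN2, and fell for ATP7A, to 0.21 from 0.31 without it. The list medians, which carry no test, ranged over the alternatives from −0.14 to 0.03 for cystine and glutathione, from −0.12 to 0.05 for copper, from −0.05 to 0.10 for ion transport and from −0.11 to 0.05 for zinc, so each took both signs. Depth limits SLC7A11 most, since its coverage in grey replicate 1 came to 14.8 reads, and TMEM163 next, at 45.3 reads in the same library.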
